A study of Drosophila melanogaster with 2 samples.

Results

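The 10 genes described here encode the core machinery by which Drosophila neuroblasts, the stem cells of the fly nervous system, divide asymmetrically. They are baz, par-6, aPKC and insc of the apical complex, l(2)gl of the cortex, the basal adaptors mira and pon, and the basal determinants numb, pros and brat. They were chosen by name from 13945 protein-coding genes, and every peak was taken whose summit lay inside the gene or within 5 kb of it on dm6. This gave 138 of the 30000 pooled candidate peaks and 16 of the 4097 thresholded peaks.

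The peaks come from chromatin immunoprecipitation followed by sequencing (ChIP-seq) on whole embryos of both sexes, aged 0 to 24 h, in 2 biological replicates of 1 group. All embryos were of the strain side-MiMIC-GFP, in which an inserted MiMIC element (a transposon-borne cassette) places an eGFP exon inside an intron of a gene and so attaches GFP to its protein, and the antibody was directed against GFP. The labels call the fusion Side-eGFP but name Sidpn as the target of the insertion, so which protein was tagged is not settled by them. There was no second condition, the labels list the same control for both replicates, and whole embryos hold many cell types beside neuroblasts.

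In a dividing neuroblast the Par proteins gather under the apical membrane, and the kinase aPKC drives fate determinants away from it. The determinants collect at the basal side and enter only the smaller daughter, the ganglion mother cell, while the other daughter remains a neuroblast. Baz, Par-6, aPKC and Lgl also set polarity in embryonic epithelia, so these genes are not active in neuroblasts alone.

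Sequences reaching 50 bases to either side of thresholded summits are shown for numb and brat, which together held 8 of the 16 thresholded peaks. The window of the brat peak beside AsnRS is not shown, since it reaches into an annotated UTR. They are RefSeq Release 6 sequence of the plus strand, along which both genes are transcribed. Capitals mark matches, on either strand, to the E-box CANNTG, to the N-box CACNAG, which reads CTTGTG here, and to the core TGGGAA of Su(H), the factor that acts for Notch. They also mark CGATA, known from sites of the BEAF insulator proteins, and the core of GAGA factor sites GAGAG, which reads CTCTC on the other strand.
numb, 136 bp before the downstream start site, chr2L:9449644-9449744: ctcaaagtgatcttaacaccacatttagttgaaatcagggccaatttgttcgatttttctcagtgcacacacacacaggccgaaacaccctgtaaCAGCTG
numb, intron 871 bp before that start site, chr2L:9448909-9449009: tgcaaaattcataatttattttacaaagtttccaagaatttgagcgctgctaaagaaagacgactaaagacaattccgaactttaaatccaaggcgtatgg
brat, 134 bp before the outermost start site, chr2L:19133632-19133732: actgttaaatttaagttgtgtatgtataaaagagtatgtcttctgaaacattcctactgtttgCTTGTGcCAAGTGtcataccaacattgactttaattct
brat, intron 8087 bp into the gene, chr2L:19141853-19141953: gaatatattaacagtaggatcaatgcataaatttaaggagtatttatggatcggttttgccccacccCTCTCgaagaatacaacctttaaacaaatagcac
brat, at the start of lncRNA:CR44977, chr2L:19159224-19159324: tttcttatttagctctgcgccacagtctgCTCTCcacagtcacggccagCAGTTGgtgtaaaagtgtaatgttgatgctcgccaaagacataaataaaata
brat, 174 bp before the start of lncRNA:CR44977, chr2L:19159423-19159523: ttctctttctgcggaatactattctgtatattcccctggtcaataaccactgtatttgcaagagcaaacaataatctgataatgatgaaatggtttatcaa
brat, strongest peak, intron 729 bp before the innermost start site, chr2L:19165088-19165188: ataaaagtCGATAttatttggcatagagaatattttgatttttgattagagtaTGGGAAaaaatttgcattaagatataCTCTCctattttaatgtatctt

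The sequences differ in what they hold. The numb promoter window ends in an E-box, the brat promoter window has an E-box next to an N-box, and the strongest brat window has neither. Over all 16 thresholded summits of the set, 5 windows held an E-box (31.2%), against 38.1% of all thresholded windows and 41.4% of the other candidates. No window held CACGTG or CACGCG, the sites known for HES-type repressors, and these occurred in 1.15% and 2.49% of all thresholded windows. GAGAG was found in 4 windows (25%), all of them at brat, against 13.8% of all thresholded windows. These counts describe letters only.

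Peaks carry the signal that the authors' peak caller gave, on a scale that no label explains, and were ranked from the highest signal down in each list. The lowest thresholded signal was 81.5 and the median over all thresholded peaks 124. At the 10 genes the thresholded signals ran from 85.1 to 430, with a median of 148. Depth is unknown for either replicate.

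Of the 10 genes, 7 had a thresholded summit inside or within 5 kb, where 46.5% of all protein-coding genes did. These were brat, baz, numb, par-6, pros, aPKC and insc, while l(2)gl, mira and pon had none. Long genes offer more sequence to a peak. All 4 members of 20 kb or longer had a thresholded peak, where 62.5% of the 1013 protein-coding genes of that length did, as had 2 of 3 members of 5 to 20 kb (59.2% of such genes) and 1 of 3 shorter ones (41.9%). Summits within 500 bp of an own start site were thresholded at 4 genes, numb, aPKC, brat and par-6, against 19.6% of all protein-coding genes. A candidate of any signal lay there at 9 of the 10 genes, against 55.6% of all protein-coding genes. Among genes with such a candidate, 44.4% of the members had a thresholded one, against 35.2% of all protein-coding genes. In all, 11.6% of the pooled candidates in the set were thresholded, near the 13.7% of the whole list. With peaks inside the gene bodies alone there were 10 thresholded peaks in place of 16, at 5 genes, and with brat left out there were also 10.

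**Figure D1:**
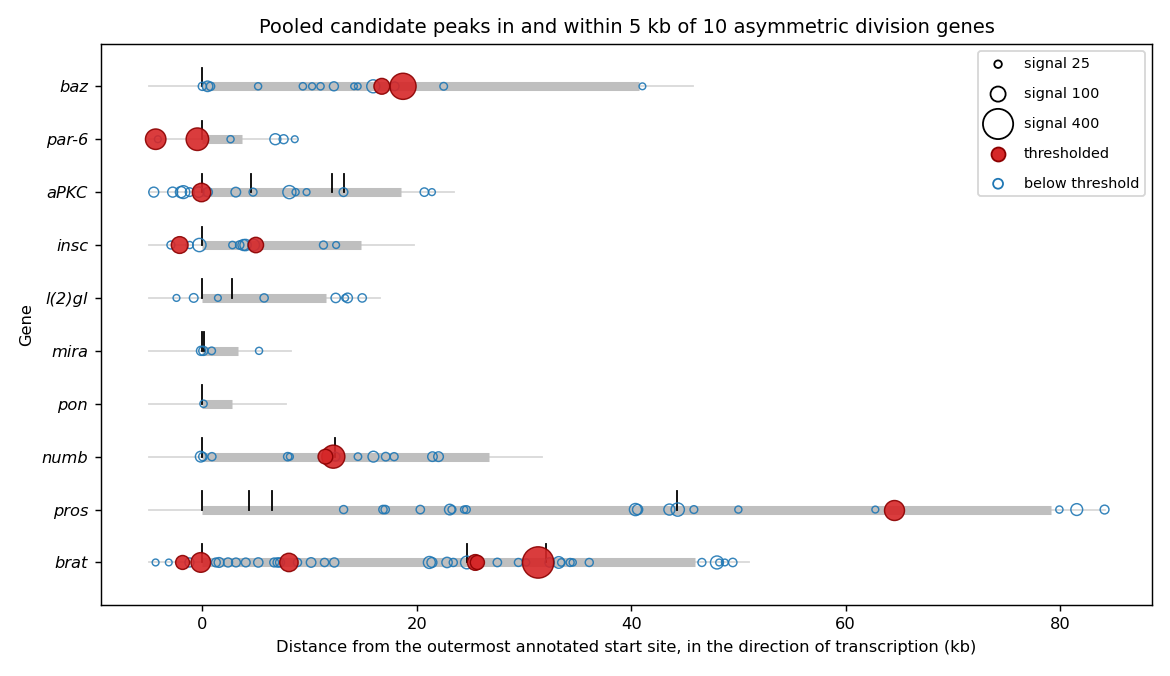
Position of each pooled candidate peak (circle, area proportional to signal in the caller's unit) relative to the outermost annotated start site of its gene in kb, with gene bodies as grey bars, windows of 5 kb as thin lines and start sites as vertical ticks. Filled circles are the 16 thresholded peaks, 6 of them at brat, and open circles are candidates below the threshold.

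Among genes of the apical complex, baz (FBgn0000163, chrX:17160006-17200728), which encodes the Par-3 scaffold, had the strongest peak. It lay at chrX:17178522-17178833, in an exon annotated as 5' UTR 18724 bp into the gene, and had a pooled signal of 299 (rank 373). Its signal was 146 in replicate 1 (rank 480) and 157 in replicate 2 (rank 308), so both replicates placed it alike. The other thresholded baz peak also lay in sequence annotated as 5' UTR, at chrX:17176549-17176958, with a pooled signal of 109 and 63.9 and 43.9 in the replicates. Both were far from the gene's only annotated start site, where the best candidate had a signal of 47.8 (rank 8863).

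The peaks of par-6 (FBgn0026192, chrX:17703352-17707096), whose protein links aPKC to its regulators, lay beside neighbouring genes. The stronger, at chrX:17702795-17703017, had a pooled signal of 222, with 137 in replicate 1 and 89.2 in replicate 2. Its summit was 449 bp upstream of par-6 and 121 bp downstream of the start of CG8188, so it stood closer to the neighbour. The weaker, at chrX:17698809-17699218, had a pooled signal of 184 (85.1 and 104 in the replicates) and lay 284 bp upstream of chas. No thresholded summit lay inside par-6 itself.

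At aPKC (FBgn0261854, chr2R:14944458-14962969), the kinase gene, a single peak was thresholded. It lay at chr2R:14962890-14963299, 126 bp upstream of the outermost of 4 start sites, and within 500 bp of a start site of ckn, which encodes an adaptor protein. The pooled signal was 149 (rank 1470), with 92.3 in replicate 1 and 58.0 in replicate 2. The 3 inner start sites of aPKC, where 9 of the 12 annotated transcripts begin, had candidates of 32.9 and 27.2 and none.

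Both thresholded peaks of insc (FBgn0011674, chr2R:20821262-20836028), whose protein couples the Par complex to spindle orientation, missed its start site. One lay 2101 bp upstream, in an intron of another gene, at chr2R:20837924-20838333, with a pooled signal of 123 (68.8 and 52.9 in the replicates). The other, at chr2R:20830822-20831231, lay 5001 bp into insc and 1391 bp downstream of a start site of sktl, a phosphoinositide kinase gene that lies within the span of insc and begins at the same base. It had a pooled signal of 104, with 42.8 in replicate 1 and 63.8 in replicate 2. The candidate at the start site of insc fell just short at 77.2, and the replicates placed it apart, with a signal of 25.1 (rank 10390) in replicate 1 and 63.7 (rank 1832) in replicate 2.

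The cortical gene l(2)gl (FBgn0002121, chr2L:9839-21376), whose protein restrains aPKC and is phosphorylated by it, had 8 pooled candidates and none at a start site. Its highest signal was 40.4 (rank 11013), with 27.6 the highest in replicate 1 and 19.1 in replicate 2. The nearest thresholded summit outside the window was 59964 bp away.

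The best peaks of the adaptor genes mira and pon were the weakest among the 10 genes in the pooled list, though in replicate 2 that of l(2)gl was lower than that of mira. For mira (FBgn0021776, chr3R:19931799-19935120), whose protein carries Pros and Brat, the best of 4 candidates had a signal of 36.2 (22.9 and 22.2 in the replicates) and lay 112 bp upstream of a start site. For pon (FBgn0025739, chrX:4636318-4639112), which helps to place Numb, the only candidate had a signal of 23.3 (rank 23108) and lay 123 bp downstream of the start site, within 500 bp also of a start site of Alms1a. It overlapped a candidate of replicate 1 (18.5) and none of replicate 2. Thresholded peaks beyond the windows were 22800 bp from mira and 19202 bp from pon, the latter 448 bp from a start site of peb.

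Among the basal determinants, numb (FBgn0002973, chr2L:9437469-9464184), which encodes an inhibitor of Notch signalling, was peaked at its inner promoter. The peak at chr2L:9449432-9449771 lay 136 bp upstream of the start site used by 2 of 3 annotated transcripts. Its pooled signal was 233 (rank 634), and it was higher in replicate 2 (149, rank 348) than in replicate 1 (86.2, rank 1379). The outermost start site, 12.4 kb upstream, had a candidate of 49.9 (32.9 and 26.7 in the replicates). A further thresholded peak at chr2L:9448754-9449163, 871 bp before the inner start site, had a pooled signal of 95.0 (44.6 and 53.9).

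The gene brat (FBgn0010300, chr2L:19133816-19179758), which encodes a translational repressor that limits growth of the daughter cell, held the strongest peak of the set and the most candidates. It had 41 pooled candidates in 33 separate regions. That was 7.33 candidates per 10 kb, against 3.97 over the 10 windows together and 2.24 over the whole genome, which includes sequence far from genes. Of the 41, 6 were thresholded, where 13.7% of all pooled candidates were. Of the protein-coding genes of 20 kb or longer, 4.74% had at least as many thresholded peaks and 3.26% at least as many candidates. The strongest, at chr2L:19164991-19165310, had a pooled signal of 430 (rank 157), with 227 in replicate 1 (rank 180) and 204 in replicate 2 (rank 173). It lay in an intron, 729 bp upstream of the innermost start site, whose own best candidate had a signal of 38.8.

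The outermost promoter of brat carried a peak at chr2L:19133477-19133886, 134 bp upstream of a start site used by 2 of 5 transcripts. Its pooled signal was 169 (91.9 and 76.7 in the replicates), and it also lay within 500 bp of a start site of Polr1D, an RNA polymerase subunit gene. An intronic peak 8087 bp into the gene, at chr2L:19141698-19142107, had 148 (71.5 and 70.1). A pair of overlapping peaks of 108 and 87.3 lay at the start of lncRNA:CR44977 inside brat. Both were paired with the same highest-signal overlapping candidates of the replicates (67.3 and 65.7). Replicate 1 nevertheless had a summit near each, at 5 bp and 4 bp, so 67.3 need not be the signal at both. The weakest thresholded peak of the set, 85.1, lay 32 bp upstream of AsnRS, the asparaginyl-tRNA synthetase gene next to brat, and within 500 bp of DCTN6-p27. It had 56.0 in replicate 1 (rank 2941) but 26.6 in replicate 2 (rank 7732). The middle start site of brat, used by 2 transcripts, had a candidate of 70.6 (rank 5131), below the threshold.

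The peak of pros (FBgn0004595, chr3R:11328480-11407627), which encodes a homeodomain factor that ends proliferation in the daughter cell, overlapped a candidate of replicate 1 alone. It lay at chr3R:11392929-11393064, in an exon annotated as 3' UTR, and was 136 bp wide where the median thresholded peak was 410 bp. Its pooled signal was 175 (rank 1122) and its signal in replicate 1 was 119 (rank 759), while no candidate of replicate 2 overlapped it. The nearest replicate 2 summit was 1702 bp away. Signal outside the called candidates is not given, so the part of replicate 2 in the pooled peak is not known. Of all 4097 thresholded peaks, 18 had no overlapping candidate in replicate 2, and 6 of these were under 200 bp wide, as were 14.5% of all thresholded peaks. At the start sites of pros only the inner one, 44.3 kb into the gene and used by 3 of 6 transcripts, had a candidate, which fell just below the threshold at 76.9 (rank 4474, with 40.0 and 39.3 in the replicates). The best replicate 2 signal anywhere at pros was 41.7 (rank 3832).

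**Figure D2:**
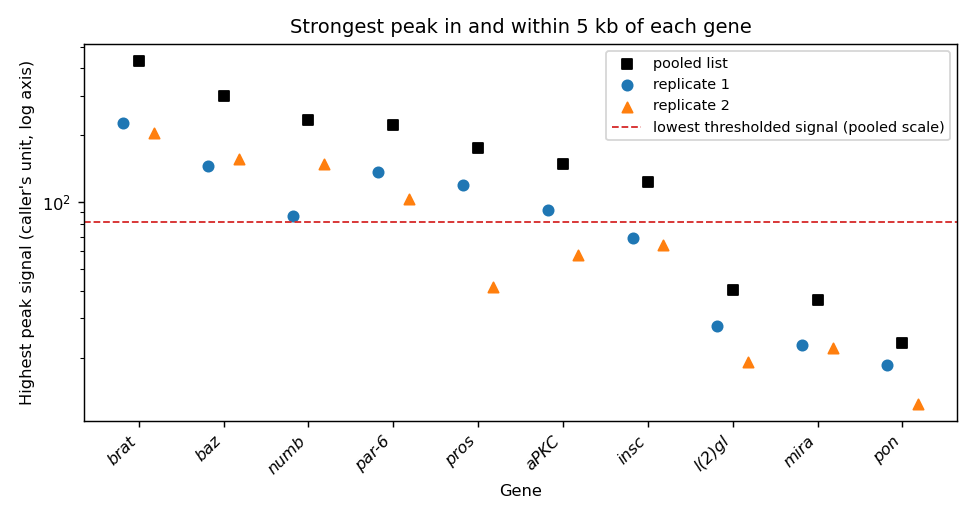
Highest peak signal in and within 5 kb of each gene in the pooled list (squares), replicate 1 (circles) and replicate 2 (triangles), in the caller's unit on a log axis; the dashed line is the lowest thresholded signal of the pooled list, 81.5, and does not apply to the replicates. The genes brat and baz lead in all 3 lists, and l(2)gl, mira and pon lie lowest.

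The order of the genes by their strongest peak was only partly shared by the replicates. The strongest peak was taken in each replicate separately, so both values of a gene need not come from the same site. At par-6 it lay by CG8188 in replicate 1 and by chas in replicate 2. At pros it lay in a 3' UTR in replicate 1 and in an intron in replicate 2. At insc it lay 2101 bp upstream in replicate 1 and inside the gene in replicate 2. At l(2)gl and pon the sites also differed. In both replicates brat led and baz followed, with 227 and 146 in replicate 1 and 204 and 157 in replicate 2. Between them and the lowest genes the order changed. In replicate 1 par-6 (137), pros (119), aPKC (92.3), numb (86.2) and insc (68.8) followed, and in replicate 2 numb (149), par-6 (104), insc (63.8), aPKC (58.0) and pros (41.7). Among these genes, par-6 stayed above pros, aPKC and insc in both replicates, and numb stayed above insc. The other pairs changed places. The genes l(2)gl (27.6 and 19.1), mira (22.9 and 22.2) and pon (18.5 and 12.4) were lowest in both, and l(2)gl and mira changed places.

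Of the 16 thresholded peaks, 15 overlapped a candidate in both replicates, against 99.5% of all thresholded peaks. In both replicates 12 ranked 4097 or better, against 72.4% of all. The log2 ratio of replicate 1 to replicate 2 signal over the 15 had a median of 0.03 and an SD of 0.50 and ran from -0.79 at the numb promoter to 1.08 at AsnRS. Over 4078 thresholded peaks of the whole list the median was 0.24 and the SD 0.58. Over all candidates, the thresholded ones included, agreement was looser. The IDR (irreproducible discovery rate) threshold is based on agreement between replicates. Peaks past it all had a pooled signal of 81.5 or more, where the median over all pooled candidates was 32.2. Among them, 18 had no overlapping candidate in replicate 2 and 1 had none in replicate 1. What part the threshold had in the looser agreement was not tested. Of all 138 candidates, 83 overlapped candidates of both replicates, 34 of replicate 1 alone, 20 of replicate 2 alone and 1 of neither. The share in both was 60.1%, against 64.0% of all 30000 pooled candidates, and the share in replicate 1 alone was 24.6% against 17.7%. Nothing in the labels says that the replicates differ in more than their number, and the part of the shared control in their agreement was not tested.

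**Figure D3:**
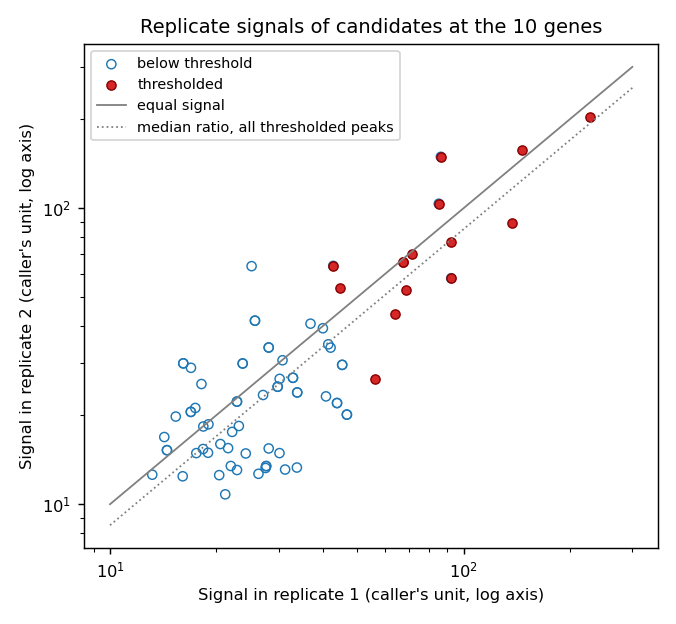
Signal in replicate 2 against signal in replicate 1, in the caller's unit on log axes, for the 83 candidates at the 10 genes that overlapped a candidate of both replicates; some share a replicate candidate and coincide. The 15 thresholded peaks (filled) lie around the line of equal signal, and the dotted line marks the median ratio of all thresholded peaks.

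By place, 4 of the 16 thresholded summits lay within 500 bp of an own start site. A further 4 lay within 500 bp of another gene's start site alone, and 8 at neither. Of these 8, 5 were intronic, 2 in annotated 5' UTR and 1 in a 3' UTR. Of the 5, 1 lay upstream of insc, in an intron of another gene. At a start site of some gene were thus 8 of 16, against 56.4% of all thresholded summits. Bases G and C made up a median of 32.7% of the windows at the 16 summits, against 37.6% at all thresholded summits and 44.6% at the other candidates.

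A further 33 genes of asymmetric division were counted by the same rules. Of these, 24 had a thresholded summit inside or within 5 kb (72.7%, against 46.5% of all protein-coding genes). Within 500 bp of an own start site 19 had one, where 19.6% of all protein-coding genes did. A candidate of any signal lay there at 31 of the 33 (93.9%, against 55.6%). Among genes with such a candidate, 61.3% had a thresholded one, against 35.2% of all protein-coding genes. By length, those with a peak in the window were 7 of 14 genes under 5 kb, 11 of 13 of 5 to 20 kb and all 6 longer ones, against 41.9%, 59.2% and 62.5% of all such genes. All 5 polarity genes, all 5 kinase and phosphatase genes and all 3 genes of Brat partners had one in the window. So had 6 of 8 genes of spindle orientation, 3 of 4 of basal cargo and myosins and 2 of 3 of Numb and Notch trafficking. Some of these peaks lay at the promoters of neighbouring genes. At an own start site the counts fell to 4 of 5 for polarity, 3 of 8 for spindle orientation and 1 of 3 for trafficking. For the other groups named they were the same. The 5 transcription factors that mark or maintain neuroblasts, wor, esg, sna, ase and dpn, had no thresholded peak in the window. Their best signals ran from 19.2 at sna to 47.7 at ase. All 5 are under 5 kb long, and at dpn a thresholded peak of 154.8 by pnut lay 5051 bp away, just beyond the window.

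The highest signals at own start sites were at AP-2alpha (276), an endocytic adaptor that binds Numb, mts (207), the catalytic subunit of protein phosphatase 2A, and aurA (174), a mitotic kinase. Rap1 (174), a small GTPase, cno (155), its cortical effector, and dlg1 (142), a cortical scaffold, followed. The peaks at AP-2alpha, mts and aurA also lay within 500 bp of a start site of ebi, Rack1 and CG3281. In the replicates AP-2alpha had ranks of 475 and 466, aurA 1166 and 1170, and dlg1 1026 and 4003, so the last was placed less evenly.

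**Figure D4:**
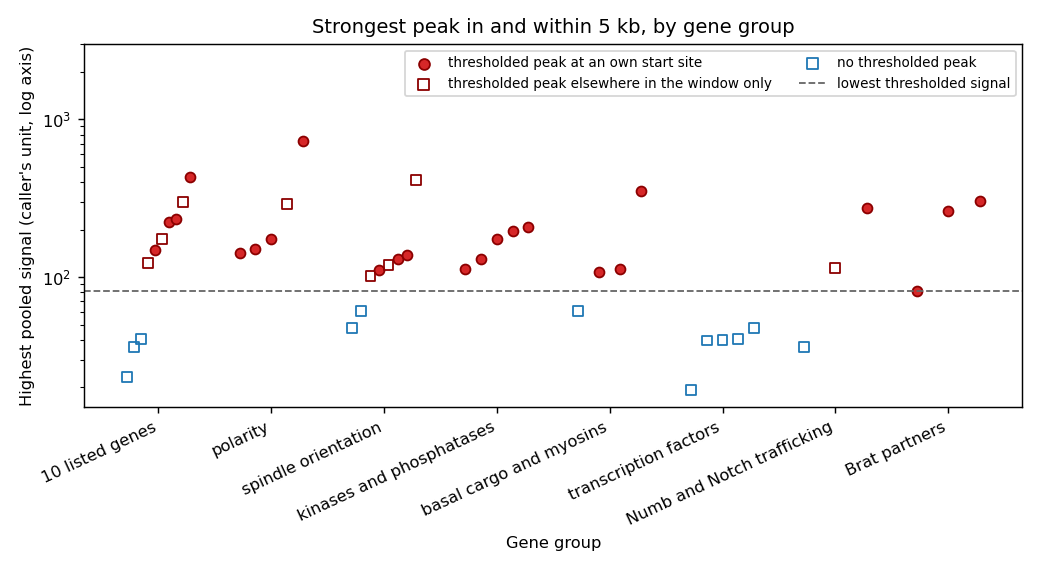
Highest pooled signal in and within 5 kb of each gene, in the caller's unit on a log axis, for the 10 genes and for 33 further genes of asymmetric division by role; circles are genes with a thresholded peak at an own start site, red squares genes with one elsewhere in the window, blue squares genes with none, and the dashed line is at 81.5. All 5 transcription factor genes lie below the line, at 47.7 or less.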

How the data were processed

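The authors deposited narrow peak lists on dm6 for each replicate, for both replicates pooled, and for the peaks past their irreproducible discovery rate (IDR) threshold, per the deposited file records. Column 7 of these lists is the peak signal deposited by the authors, and column 10 the summit offset. Which caller, aligner and IDR threshold produced them was not given in the sources used here. Lists on dm3 were not used, since genes were placed on dm6 (Ensembl release 115, annotation version 6.54, without transposable elements and pseudogenes).

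The summit was column 2 plus column 10, written 1-based. Each pooled peak was paired with the highest-signal replicate candidate that overlapped it by at least 1 bp. A promoter was 500 bp on either side of a start site. The letters of 14 motifs were searched within 50 bases of summits on both strands. No test was made, because there was 1 group. The members and gene lists were chosen with earlier results of these data known. All members were named, with every thresholded peak or otherwise the best candidate, neighbours with a start site within 500 bp of such a summit, and the 6 further genes with the highest thresholded signal at an own start site. The more distant sktl, peb and pnut, and the genes of the closing observations, were named after their values were seen. Python 3.11.15 and pandas 2.3.3 were used. The code was tested on planted peaks and motifs.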

Additional observations from a re-analysis of the deposited data

How the results depend on the processing

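Counts and shares were recomputed under other windows, promoter widths, overlaps and peak lists, in 42 values, of which 36 stayed within 1.5 times the main count or within its 95% Wilson interval. Of the other 6, the count of thresholded peaks was 10 in place of 16 with gene bodies alone and 10 without brat, a setting added once the values were known. With only the 1000 strongest thresholded peaks there were 4 such peaks (2.90% of the candidates) at 4 genes, and 2 genes had one at an own start site. With the top 4097 peaks of either replicate in place of the thresholded list, 7 genes again had a peak. For pros in replicate 2 this was another peak, of 41.7 (rank 3832), and not the thresholded one. Depth is unknown, so absence of a peak at l(2)gl, mira or pon is not shown.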

Other observations

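Some of the further genes had strong peaks away from their own start sites, named here after their values were seen. The strongest was in an intron of cno, 1919 bp from a start site, with a pooled signal of 728 (rank 48) and ranks of 69 and 32 in replicates 1 and 2. An intronic peak of jar, the myosin VI gene, 511 bp from a start site, had 349 (rank 281), with signals of 199 and 143 in the replicates. The strongest peak near Gbeta13F, a G protein subunit gene, was at the promoter of the neighbouring Gapdh2 (413), and that near Cdc42 at the promoter of Mer (290).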
